A study of Homo sapiens with 2 samples.

Results

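The proteasome is the large protease that degrades proteins tagged with ubiquitin, and its genes carry the symbol PSM. Its genes were taken as every row whose name was PSMA, PSMB, PSMC, PSMD, PSME, PSMF or PSMG followed by a number in both deposited tables. This gave 46 genes out of 57773 rows: 6 alpha subunits of the core (PSMA), 11 beta subunits of the core (PSMB), 6 ATPases of the regulatory particle (PSMC), 14 non-ATPase genes of the regulatory particle (PSMD), and 9 activators, inhibitors and assembly chaperones (PSME to PSMG). PSMA1 and PSMA2 are listed as 2 rows each with a suffix, so they fall outside this rule and are given apart.

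RNA sequencing was done on BFTC 905, a human bladder carcinoma line of urothelial origin that, per the labels, expresses little ANGPTL4; total RNA was the starting material. The ANGPTL4 library came from cells stably transfected with a plasmid that overexpresses ANGPTL4, which cells secrete and which blocks lipoprotein lipase. The vector library came from the same line stably transfected with the empty plasmid pcDNA3.1-myc-His (-) A. Both were selected in medium with G418 at 400 ug/ml and 10% serum, and the labels do not say how many clones either library holds. The comparison asks what differs in this line once ANGPTL4 is expressed from a plasmid. With 1 library per group there is no replicate check and no p-value, and each statement compares these 2 libraries, not the conditions.

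The unit is RPKM, the authors' read numbers scaled to exon length and to the mapped reads of the library. The steps between RPKM values corresponded to 3233596 reads in the ANGPTL4 library and 6572767 reads in the vector library, a 2.03-fold difference. On a transcript of 2 kb, 1 read was worth 0.155 RPKM in the ANGPTL4 library and 0.0761 RPKM in the vector library. The plasmid gene checked the labels: ANGPTL4 was at 91.2 RPKM in the ANGPTL4 library and 3.92 RPKM in the vector library, a ratio of 23.2 (95% counting interval 18.0 to 30.5). All 12 epithelial markers looked at were measured, among them KRT5 at 469 RPKM in the ANGPTL4 library and 434 RPKM in the vector library, with a summed level of 1610 RPKM in the ANGPTL4 library and 1662 RPKM in the vector library. Of 6 fibroblast markers 1 was measured (summed level 4.73 RPKM in the ANGPTL4 library and 4.76 RPKM in the vector library, with COL3A1, DCN and LUM listed at 0), and of 5 leukocyte markers 1 was measured (summed level 1.15 RPKM in the ANGPTL4 library and 1.07 RPKM in the vector library, with CD3E listed at 0). Of 4 endothelial markers, PECAM1 was not analysed here and none of the other 3 reached 1 RPKM (summed level 0.927 RPKM in the ANGPTL4 library and 0.556 RPKM in the vector library).

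In the working proteasome, rings of alpha and beta subunits stack into a hollow core, and the beta subunits PSMB5, PSMB6 and PSMB7 carry the chymotrypsin-like, caspase-like and trypsin-like cutting sites inside it. A regulatory particle caps the core: its PSMC ATPases unfold the substrate and thread it in, while PSMD subunits bind ubiquitin chains and cut them off. Interferon-inducible beta subunits (PSMB8, PSMB9 and PSMB10) replace the constitutive catalytic ones in the immunoproteasome, which favours peptides for HLA class I. Transcription factors of the NFE2L family raise proteasome genes together through antioxidant response elements when proteasome activity is short.

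Most proteasome genes were slightly lower in the ANGPTL4 library. Of the 46 genes, 44 were measured, meaning at least 1 RPKM in at least 1 library, and 37 of these 44 were lower in the ANGPTL4 library (84.1%), against 64.4% of all 11801 measured genes. The log2 ratio used for counts and medians is log2((RPKM + 1) in ANGPTL4 / (RPKM + 1) in vector), which understates differences of low genes. Its median was -0.22 over the 44 proteasome genes and -0.11 over all measured genes, so a shift of 0.11 in the same direction was shared by the whole table. Relative to the median gene, 30 of 44 proteasome genes were lower, where 50.0% of all genes are by construction. The split depends on the scaling: 25 proteasome genes were lower and 19 higher with the libraries scaled to the same upper quartile (47.6% of all measured genes lower), and all 44 were lower with a fixed total per library (79.4% of all measured genes lower). In bulk RNA, fewer cells of a type and less RNA per cell cannot be told apart.

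The differences were small. At least 1.5-fold lower values were found for 8 of 44 proteasome genes (18.2%), against 9.25% of all measured genes. These were PSMG2, PSMD14, PSMA6, PSMA5, PSMA3, PSMB3, PSMB10 and PSMB5. At least 2-fold lower values were found for 1 of 44, PSMG2 (2.27%), a share near the 1.92% of all measured genes. No proteasome gene was at least 1.5-fold higher, against 3.08% of all measured genes, or at least 2-fold higher, against 1.19%. The summed level of the 44 genes was 1099 RPKM in the ANGPTL4 library and 1348 RPKM in the vector library.

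**Figure D1:**
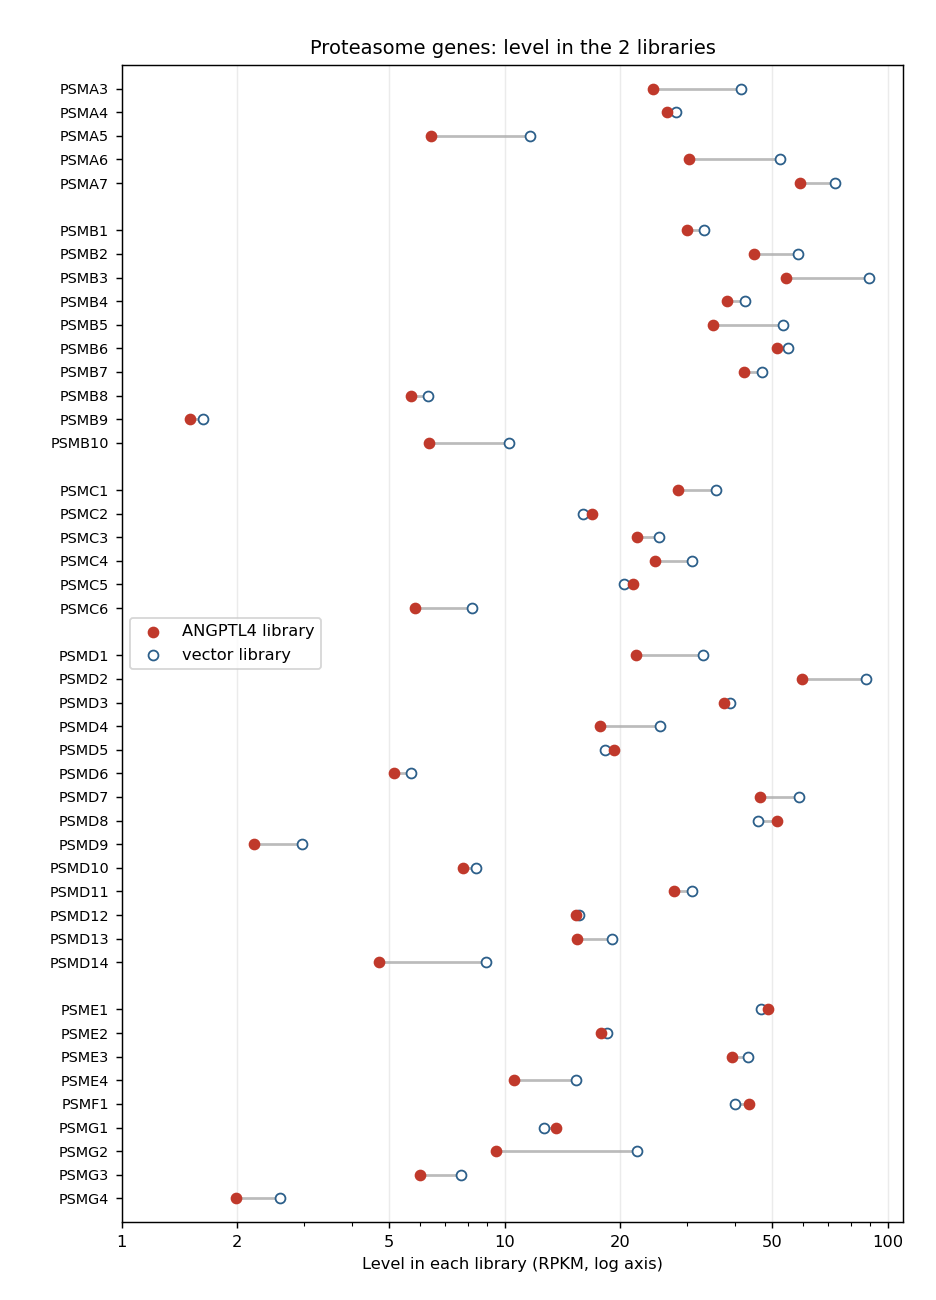
Level of each of the 44 measured proteasome genes (RPKM, log axis) in the ANGPTL4 library (filled red points) and in the vector library (open blue points), 1 library each, grouped from top to bottom as PSMA, PSMB, PSMC, PSMD and PSME to PSMG. The red point lies left of the blue one for 37 of 44 genes, and PSMG2 and PSMD14 have the widest gaps on this axis.

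Reads recovered from the RPKM steps gave each ratio an exact 95% interval that covers counting error only. The interval lay below 1 for 20 of the 44 genes. Among genes with settled reads it lay below 1 for 18 of 39 proteasome genes (46.2%), against 27.2% of 9745 measured rows, and above 1 for 1 of 39, PSMD8, against 8.49%. Set against the ratio of the median gene instead of 1, it lay below for 14 of these 39 (35.9%), against 16.5% of those rows, and above for 3 of 39 (7.69%), against 16.2%. Proteasome genes had more reads than most, a median of 212.5 in the ANGPTL4 library and 539.5 in the vector library, against 94 in the ANGPTL4 library and 215 in the vector library over those 9745 rows, which makes their intervals narrower. Among genes with settled reads and at least 100 vector reads, 18 of 36 proteasome genes (50.0%) had an interval below 1, against 33.4% of all 7101 such rows, and 1 of 36 had an interval above 1, against 9.56%. The reads of PSMA6, PSMB6, PSMD9, PSMD13 and PSMG2 were not settled and are minimum numbers, so their intervals are, if anything, too wide.

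**Figure D2:**
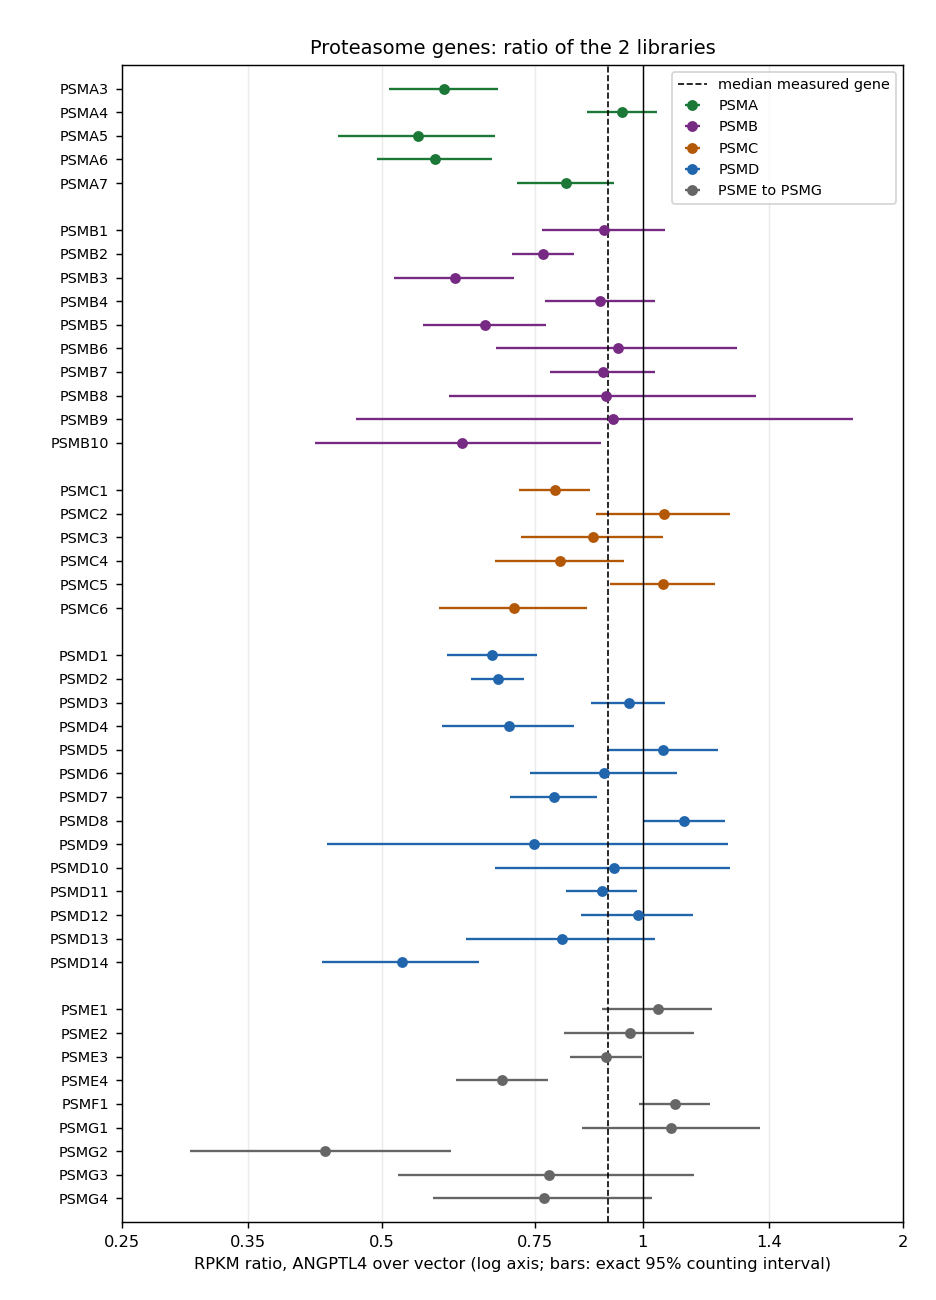
RPKM ratio of the ANGPTL4 library over the vector library for each measured proteasome gene (log axis), with bars for the exact 95% counting interval; the solid line marks a ratio of 1 and the dashed line the median measured gene at 0.912. The bars of 20 genes end left of 1, and PSMG2 has the lowest ratio at 0.429.

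**Figure D3:**
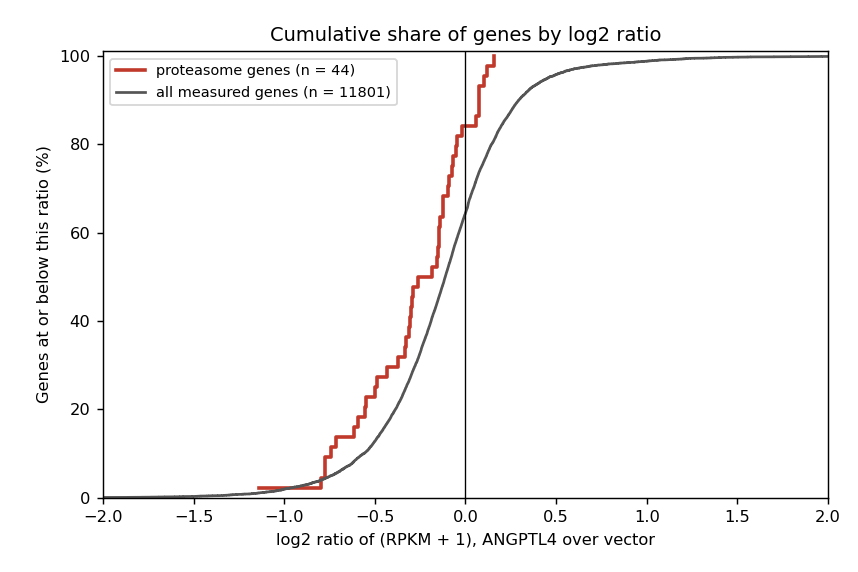
Cumulative share of genes (%) by log2 ratio of (RPKM + 1), ANGPTL4 over vector, for 44 proteasome genes (red) and all 11801 measured genes (grey). The red curve reaches 84.1% at 0, where the grey curve stands at 64.4%, and it ends at 0.16.

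Promoters of the proteasome genes were searched for TGACNNNGC, the antioxidant response element core that NFE2L1 and NFE2L2 bind, on both strands. RefSeq promoter windows on GRCh38.p14, running from 250 bases before to 50 bases after the start, were at hand for 40 of the 46 genes (PSMA7, PSMB1, PSMB6, PSMB7, PSMD4 and PSMG3 had no entry). At least 1 window held the letters for 15 of 40 proteasome genes (37.5%), against 16.1% of all 27305 symbols in the table. Of the 8 genes that were at least 1.5-fold lower, 2 held it, PSMG2 and PSMB3, and of the other 32 genes 13 did. A match is a stretch of letters and not evidence of binding. The windows of PSMG2 and PSMB3, and for contrast those of PSMA4 and PSMD3, whose levels were close in the libraries, are shown 5′ to 3′ with the match in capitals. They were chosen after their values were seen.
PSMG2, chr18:12658488-12658787, plus strand: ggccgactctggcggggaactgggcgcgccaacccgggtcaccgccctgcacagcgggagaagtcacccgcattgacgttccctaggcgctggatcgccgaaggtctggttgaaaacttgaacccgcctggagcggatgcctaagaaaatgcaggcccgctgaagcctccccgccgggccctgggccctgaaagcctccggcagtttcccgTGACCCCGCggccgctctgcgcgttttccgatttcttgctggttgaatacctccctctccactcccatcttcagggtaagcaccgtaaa
PSMB3, chr17:38752491-38752790, plus strand: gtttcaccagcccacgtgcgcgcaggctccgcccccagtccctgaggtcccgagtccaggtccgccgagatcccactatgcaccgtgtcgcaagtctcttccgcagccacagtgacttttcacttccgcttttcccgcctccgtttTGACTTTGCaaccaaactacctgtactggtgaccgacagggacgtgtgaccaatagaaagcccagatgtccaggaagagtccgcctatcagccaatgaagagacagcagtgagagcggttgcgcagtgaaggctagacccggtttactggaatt
PSMA4, chr15:78540536-78540835, plus strand: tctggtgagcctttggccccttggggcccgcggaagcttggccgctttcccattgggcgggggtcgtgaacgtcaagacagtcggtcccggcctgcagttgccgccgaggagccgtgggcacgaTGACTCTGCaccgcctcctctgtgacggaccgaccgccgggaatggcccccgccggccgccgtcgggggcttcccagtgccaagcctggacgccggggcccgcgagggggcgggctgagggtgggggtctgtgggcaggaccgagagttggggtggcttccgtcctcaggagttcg
PSMD3, chr17:39980557-39980856, plus strand: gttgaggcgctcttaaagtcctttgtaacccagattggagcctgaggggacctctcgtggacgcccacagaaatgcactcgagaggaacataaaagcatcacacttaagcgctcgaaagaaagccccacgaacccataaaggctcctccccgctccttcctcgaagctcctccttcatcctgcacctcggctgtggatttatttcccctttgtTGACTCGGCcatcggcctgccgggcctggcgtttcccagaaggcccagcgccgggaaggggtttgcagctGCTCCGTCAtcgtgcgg
The match began 39 bases before the start in PSMG2, 104 bases before it in PSMB3 and 126 bases before it in PSMA4. PSMD3 held 2 matches, a sense one 37 bases before the start and a reverse one 33 bases after it.

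The alpha subunits, which form the outer rings and the gate of the core, were lower for all 5 measured genes (64.4% of all measured genes). At least 1.5-fold lower were 3 of them (9.25% of all measured genes). Relative to the median gene (50.0%) or after upper-quartile scaling (47.6%), 4 of 5 were lower. The summed level of the alpha subunits was 146.8 RPKM in the ANGPTL4 library and 206.3 RPKM in the vector library, the lowest ratio of the 5 classes at 0.712. PSMA5 (chromosome 1, 109941653 to 109969062, hg19) was at 6.41 RPKM in the ANGPTL4 library and 11.7 RPKM in the vector library, a ratio of 0.550 (0.445 to 0.675, from 119 reads in the ANGPTL4 library and 440 in the vector library). PSMA6 (chromosome 14, 35747839 to 35786699) was at 30.2 RPKM in the ANGPTL4 library and 52.5 RPKM in the vector library, a ratio of 0.576 (0.494 to 0.670). The region of the KIAA0391_2 row overlaps that of PSMA6, and this row ran the other way, at 28.0 RPKM in the ANGPTL4 library and 18.3 RPKM in the vector library. How reads of such overlapping rows were divided is not given in the sources used here, and its part in the PSMA6 ratio was not tested.

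PSMA3 was at 24.4 RPKM in the ANGPTL4 library and 41.4 RPKM in the vector library. PSMA7 was at 59.2 RPKM in the ANGPTL4 library and 72.7 RPKM in the vector library, a ratio of 0.815 (0.715 to 0.926). PSMA4 was at 26.6 RPKM in the ANGPTL4 library and 28.1 RPKM in the vector library, a ratio of 0.947 (0.863 to 1.04), an interval that includes 1. The ring holds each alpha subunit in equal numbers, while the ratios were 0.550 to 0.589 for 3 of these genes and 0.815 and 0.947 for PSMA7 and PSMA4. PSMA8, the testis form of PSMA7, was listed at 0 in both libraries.

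The remaining alpha subunits, PSMA1 and PSMA2, had a main row and a minor row over largely the same region. The main row of PSMA1 was at 18.7 RPKM in the ANGPTL4 library and 33.5 RPKM in the vector library. Its minor row was at 4.37 RPKM in the ANGPTL4 library and 0.349 RPKM in the vector library, from 37 reads in the ANGPTL4 library and 6 in the vector library. The rows differed in opposite directions between the libraries, and their sum was 23.0 RPKM in the ANGPTL4 library and 33.9 RPKM in the vector library, a ratio of 0.680. PSMA2 summed to 18.0 RPKM in the ANGPTL4 library and 29.4 RPKM in the vector library, a ratio of 0.611. With PSMA1 and PSMA2 added, the median log2 ratio of the proteasome genes was -0.28.

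All 10 measured beta subunits were lower in the ANGPTL4 library as deposited (64.4% of all measured genes). This fell to 8 of 10 relative to the median gene (50.0%) and 5 of 10 after upper-quartile scaling (47.6%). As deposited, 3 were at least 1.5-fold lower (9.25% of all measured genes) and 4 had an interval below 1 (27.2% of measured rows with settled reads). Their summed level was 309 RPKM in the ANGPTL4 library and 397 RPKM in the vector library. PSMB3, a structural subunit, had the highest level of any proteasome gene in the vector library: it was at 54.3 RPKM in the ANGPTL4 library and 89.6 RPKM in the vector library, a ratio of 0.606 (0.517 to 0.709). PSMB2, PSMB4 and PSMB1, which have no catalytic site either, were closer. PSMB2 was at 44.9 RPKM in the ANGPTL4 library and 58.5 RPKM in the vector library. PSMB4 was at 38.0 RPKM in the ANGPTL4 library and 42.5 RPKM in the vector library. PSMB1 was at 29.9 RPKM in the ANGPTL4 library and 33.1 RPKM in the vector library.

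The catalytic subunits had the following levels. PSMB5, the chymotrypsin-like subunit that proteasome inhibitors such as bortezomib bind, was at 35.0 RPKM in the ANGPTL4 library and 53.3 RPKM in the vector library, a ratio of 0.658 (0.558 to 0.773). PSMB6, the caspase-like subunit, was at 51.4 RPKM in the ANGPTL4 library and 54.9 RPKM in the vector library, a ratio of 0.937 (0.676 to 1.29). PSMB7, the trypsin-like subunit, was at 42.2 RPKM in the ANGPTL4 library and 46.9 RPKM in the vector library, a ratio of 0.900 (0.782 to 1.03). Of the 3, only the interval of PSMB5 lay below 1. The interval of PSMB6 comes from minimum reads and is, if anything, too wide, so its overlap with that of PSMB5 shows nothing about their difference. The 7 constitutive beta genes spanned 29.9 to 54.3 RPKM in the ANGPTL4 library and 33.1 to 89.6 RPKM in the vector library, with coefficients of variation across genes of 20.7% in the ANGPTL4 library and 32.9% in the vector library.

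The immunoproteasome subunits were the low end of the beta genes in both libraries. PSMB10 (chromosome 16, 67968405 to 67970990) was at 6.34 RPKM in the ANGPTL4 library and 10.3 RPKM in the vector library, a ratio of 0.618 (0.418 to 0.895, from 38 reads in the ANGPTL4 library and 125 in the vector library). PSMB8 was at 5.70 RPKM in the ANGPTL4 library and 6.30 RPKM in the vector library, a ratio of 0.906 (0.598 to 1.35). PSMB9 was at 1.51 RPKM in the ANGPTL4 library and 1.63 RPKM in the vector library, from 15 reads in the ANGPTL4 library and 33 in the vector library, a ratio of 0.924 (0.466 to 1.75). At this depth no difference was detectable for PSMB8 and PSMB9, whose annotated regions on chromosome 6 overlap each other. PSMB11, the thymus form, was listed at 0 in both libraries.

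Set beside the constitutive subunit it replaces, each immunoproteasome subunit was the minor partner. PSMB9 made up 2.85% of its pair with PSMB6 in the ANGPTL4 library (95% interval 1.52 to 4.98) and 2.89% in the vector library (1.93 to 4.21). PSMB10 made up 13.1% of its pair with PSMB7 in the ANGPTL4 library (9.43 to 17.4) and 17.9% in the vector library (15.2 to 21.0). PSMB8 made up 14.0% of its pair with PSMB5 in the ANGPTL4 library (10.0 to 18.8) and 10.6% in the vector library (8.49 to 13.0). The intervals of the libraries overlapped for all 3 pairs. Those of PSMB9 with PSMB6 use the minimum reads of PSMB6 and are, if anything, too wide, so their overlap shows nothing about a difference.

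**Figure D4:**
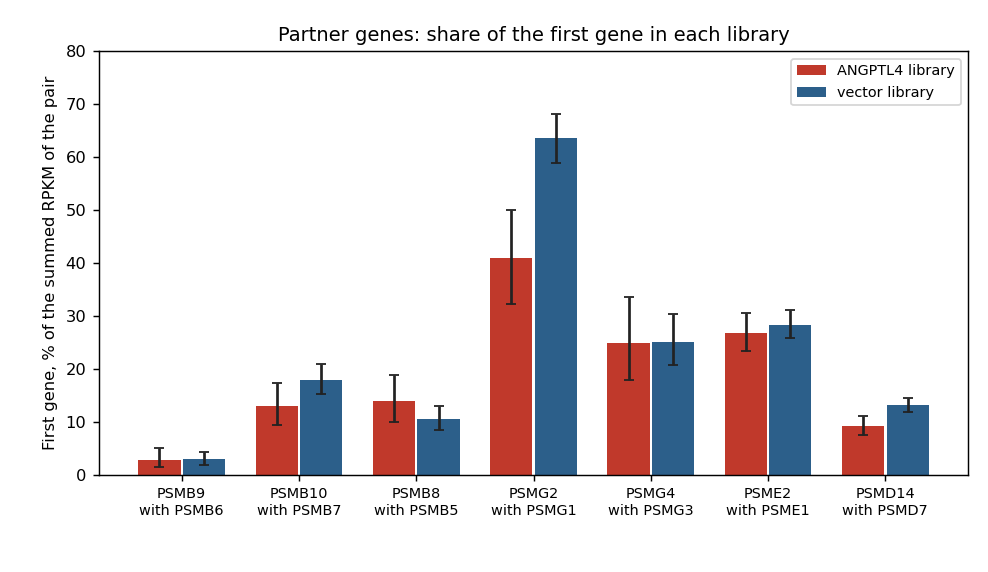
Share of the first-named gene in the summed RPKM of 7 partner pairs, in the ANGPTL4 library (red, left) and the vector library (blue, right), 1 library each, with exact 95% counting intervals as bars. The intervals of the libraries do not overlap for PSMG2 with PSMG1 and for PSMD14 with PSMD7, and overlap for the other 5 pairs. The reads of PSMB6 and PSMG2 are minimum numbers, so the intervals of their pairs are, if anything, too wide.

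None of the ATPases of the regulatory particle, a ring of 6 different subunits, was 1.5-fold lower in the ANGPTL4 library as deposited (9.25% of all measured genes). Of the 6, 4 were lower by less (64.4% of all measured genes lower). With a fixed total per library all 6 were lower (79.4% of all measured genes lower). Their summed level was 119.6 RPKM in the ANGPTL4 library and 136.6 RPKM in the vector library. PSMC6 was at 5.83 RPKM in the ANGPTL4 library and 8.22 RPKM in the vector library, a ratio of 0.709 (0.581 to 0.861). PSMC1 was at 28.3 RPKM in the ANGPTL4 library and 35.7 RPKM in the vector library, a ratio of 0.792 (0.720 to 0.870). PSMC4 was at 24.7 RPKM in the ANGPTL4 library and 30.8 RPKM in the vector library. PSMC3 was at 22.2 RPKM in the ANGPTL4 library and 25.3 RPKM in the vector library.

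PSMC2 and PSMC5 stood on the other side of 1, with intervals that include 1. PSMC2 was at 17.0 RPKM in the ANGPTL4 library and 16.0 RPKM in the vector library, a ratio of 1.06 (0.884 to 1.26). PSMC5 was at 21.6 RPKM in the ANGPTL4 library and 20.5 RPKM in the vector library, a ratio of 1.06 (0.917 to 1.21). PSMC6 had the longest exon length of the ATPases in this annotation, 7482 bases against 2245 to 6712 for the other ATPases. RPKM divides by every annotated exon base, by the same length in both libraries. The part of exon length in the PSMC6 level was not tested.

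The PSMD genes fall into the scaffold and ubiquitin receptors of the base, the lid, and chaperones that are not in the mature particle. The 3 base genes named PSMD had ratios close to each other. PSMD2, the scaffold that docks shuttle factors, was at 59.7 RPKM in the ANGPTL4 library and 87.7 RPKM in the vector library, a ratio of 0.681 (0.634 to 0.730, from 1053 reads in the ANGPTL4 library and 3145 in the vector library, the narrowest interval of the proteasome genes). PSMD1, the other scaffold, was at 22.1 RPKM in the ANGPTL4 library and 32.9 RPKM in the vector library, a ratio of 0.670 (0.594 to 0.755). PSMD4, a ubiquitin receptor, was at 17.8 RPKM in the ANGPTL4 library and 25.4 RPKM in the vector library, a ratio of 0.700 (0.586 to 0.834). The intervals of these 3 ratios all lay below 1 (27.2% of measured rows with settled reads) and overlapped each other.

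In the lid, PSMD14 differed most. PSMD14 (chromosome 2, 162164549 to 162268228), the metalloprotease that cuts ubiquitin chains from substrates, was at 4.70 RPKM in the ANGPTL4 library and 8.91 RPKM in the vector library, a ratio of 0.527 (0.427 to 0.648, from 117 reads in the ANGPTL4 library and 451 in the vector library). Its partner PSMD7, with which it forms a dimer, was at 46.5 RPKM in the ANGPTL4 library and 58.9 RPKM in the vector library, a ratio of 0.790 (0.703 to 0.886). PSMD14 was 9.18% of the pair in the ANGPTL4 library (7.54 to 11.1) and 13.2% in the vector library (11.9 to 14.5). The row AC009120.6, whose region overlaps that of PSMD7, was at 0.912 RPKM in the ANGPTL4 library and 3.70 RPKM in the vector library, and its part in the PSMD7 value was not tested.

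The rest of the lid was close between the libraries. PSMD8 (chromosome 19, 38865176 to 38874464) was the proteasome gene with the highest ratio, at 51.3 RPKM in the ANGPTL4 library and 45.9 RPKM in the vector library, a ratio of 1.12 (1.001 to 1.245). With values rescaled to a fixed total per library its log2 ratio was -0.0098, so this direction depends on the scaling. PSMD3 was at 37.3 RPKM in the ANGPTL4 library and 38.7 RPKM in the vector library. PSMD11, at 27.7 RPKM in the ANGPTL4 library and 30.9 RPKM in the vector library, had an interval just below 1 (ratio 0.897, 0.816 to 0.985). That interval includes the ratio of the median gene, 0.912, and after upper-quartile scaling the log2 ratio of PSMD11 was -0.00078. PSMD12 was at 15.4 RPKM in the ANGPTL4 library and 15.6 RPKM in the vector library. PSMD13 was at 15.4 RPKM in the ANGPTL4 library and 19.1 RPKM in the vector library. PSMD6 was at 5.13 RPKM in the ANGPTL4 library and 5.69 RPKM in the vector library. The 8 lid genes had a median log2 ratio of -0.14, near the -0.11 of all measured genes. That of the 3 base genes named PSMD was -0.55. The 6 ATPases, which also belong to the base, had a median of -0.25, and the ubiquitin receptor ADRM1 was at -0.073.

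Of the chaperones that help build the regulatory particle, PSMD5 was at 19.3 RPKM in the ANGPTL4 library and 18.3 RPKM in the vector library, a ratio of 1.05 (0.909 to 1.22). PSMD10, also known as gankyrin, was at 7.80 RPKM in the ANGPTL4 library and 8.41 RPKM in the vector library. PSMD9 was at 2.22 RPKM in the ANGPTL4 library and 2.96 RPKM in the vector library, a ratio of 0.749 (0.431 to 1.25). The intervals of PSMD5, PSMD10 and PSMD9 all included 1, and that of PSMD9 came from minimum reads and is, if anything, too wide.

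Among the activators that open the core without ubiquitin, PSME4 had the lowest ratio. PSME1 and PSME2 build the interferon-inducible activator together. PSME1 was at 48.6 RPKM in the ANGPTL4 library and 46.7 RPKM in the vector library, a ratio of 1.04 (0.898 to 1.20). PSME2 was at 17.9 RPKM in the ANGPTL4 library and 18.5 RPKM in the vector library, a ratio of 0.966 (0.812 to 1.15). PSME3, the nuclear activator, was at 39.2 RPKM in the ANGPTL4 library and 43.3 RPKM in the vector library, a ratio of 0.907 (0.824 to 0.997). PSME4, the large activator known for histone degradation, was at 10.6 RPKM in the ANGPTL4 library and 15.4 RPKM in the vector library, a ratio of 0.688 (0.608 to 0.777). PSMF1, first described as an inhibitor of the core, was at 43.5 RPKM in the ANGPTL4 library and 40.0 RPKM in the vector library, a ratio of 1.09 (0.991 to 1.20).

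The lowest ratio of all came from PSMG2, a chaperone that builds the alpha ring as a dimer with PSMG1. PSMG2 (chromosome 18, 12658737 to 12725739) was at 9.50 RPKM in the ANGPTL4 library and 22.1 RPKM in the vector library, a ratio of 0.429 (0.300 to 0.601, from at least 42 reads in the ANGPTL4 library and 199 in the vector library). PSMG1 was at 13.6 RPKM in the ANGPTL4 library and 12.6 RPKM in the vector library, a ratio of 1.08 (0.850 to 1.37). The level of PSMG2 over PSMG1 was therefore 0.696 in the ANGPTL4 library (0.476 to 1.001) and 1.75 in the vector library (1.44 to 2.14). The regions of 2 other rows, CEP76 and AP005482.1, overlap that of PSMG2. CEP76 was at 1.56 RPKM in the ANGPTL4 library and 2.37 RPKM in the vector library. AP005482.1 was at 1.41 RPKM in the ANGPTL4 library and 1.16 RPKM in the vector library. Both had a lower RPKM than PSMG2, and their part in the PSMG2 value was not tested.

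The second chaperone pair did not show such a split. PSMG3 was at 5.996 RPKM in the ANGPTL4 library and 7.68 RPKM in the vector library, a ratio of 0.780 (0.522 to 1.14). PSMG4 was at 1.99 RPKM in the ANGPTL4 library and 2.58 RPKM in the vector library, a ratio of 0.769 (0.572 to 1.02). PSMG4 over PSMG3 was 0.332 in the ANGPTL4 library (0.220 to 0.508) and 0.336 in the vector library (0.262 to 0.435). The regions of SLC22A23 and TUBB2B overlap that of PSMG4, and both rows ran the other way. SLC22A23 was at 4.52 RPKM in the ANGPTL4 library and 3.15 RPKM in the vector library. TUBB2B was at 2.68 RPKM in the ANGPTL4 library and 1.87 RPKM in the vector library. Their part in the PSMG4 value was not tested.

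The order of the proteasome genes by level was largely shared. Over the 44 genes Pearson's r of log2(RPKM + 1) between the libraries was 0.972 and Spearman's rho 0.967, against 0.967 and 0.960 over all measured genes, as descriptions across genes of the same pair of libraries. The highest level was that of PSMD2 in the ANGPTL4 library, with PSMA7 next, while in the vector library PSMB3 and PSMD2 lay close together. PSMB9, PSMG4 and PSMD9 were the lowest in both libraries. Spearman's rho of the log2 ratio was -0.096 with exon length and 0.043 with GC content over the 44 genes. Over 10698 measured genes it was 0.076 with exon length and 0.13 with GC content, again as descriptions.

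Genes that work with the proteasome but carry other symbols gave a mixed picture. To set beside the counts of each list, 64.4% of all measured genes were lower as deposited and 50.0% relative to the median gene. The share was 47.6% after upper-quartile scaling and 79.4% with a fixed total per library. As deposited, 9.25% of all measured genes were at least 1.5-fold lower, 3.08% at least 1.5-fold higher and 1.92% at least 2-fold lower. Of 8 assembly factors and subunits, 7 were lower, or 4 relative to the median gene, and 1 was at least 2-fold lower as deposited. That gene was POMP, the maturation protein that joins half-cores and is itself degraded, at 10.8 RPKM in the ANGPTL4 library and 24.9 RPKM in the vector library, a ratio of 0.434 (0.313 to 0.592, from 50 reads in the ANGPTL4 library and 234 in the vector library). USP14, a deubiquitinase bound to the regulatory particle, was at 36.1 RPKM in the ANGPTL4 library and 46.1 RPKM in the vector library. PAAF1, a chaperone of the ATPase ring, was at 4.89 RPKM in the ANGPTL4 library and 4.01 RPKM in the vector library, a ratio of 1.22 (0.784 to 1.87). The ubiquitin receptor ADRM1 was at 52.6 RPKM in the ANGPTL4 library and 55.3 RPKM in the vector library.

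The transcription list, which holds the factors that raise proteasome genes and the enzymes that activate them, had 3 of 7 measured genes lower, or 4 of 7 with a fixed total per library. As deposited, none was beyond 1.5-fold. TCF11, which is also named in the list, is a synonym of NFE2L1 and has no row of its own. NFE2L1, the factor known to restore proteasome genes after inhibition, was at 69.0 RPKM in the ANGPTL4 library and 59.3 RPKM in the vector library, a ratio of 1.16 (1.09 to 1.25). NFE2L2, the oxidative stress factor, was at 12.6 RPKM in the ANGPTL4 library and 15.6 RPKM in the vector library, a ratio of 0.810 (0.694 to 0.942). NGLY1, which deglycosylates NFE2L1, was at 1.67 RPKM in the ANGPTL4 library and 2.23 RPKM in the vector library. At the upper end MAFF, a small Maf partner, was at 13.9 RPKM in the ANGPTL4 library and 11.3 RPKM in the vector library. Transcript levels of these factors do not measure their activity.

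Ubiquitin genes and activating enzymes were lower for all 6 measured genes, or for 5 relative to the median gene and 4 after upper-quartile scaling, with a median log2 ratio of -0.44 as deposited. RPS27A, which encodes ubiquitin fused to a ribosomal protein, was at 47.7 RPKM in the ANGPTL4 library and 117.2 RPKM in the vector library, the 1 gene of this list that was 2-fold lower. UBA1, the main activating enzyme, was at 41.8 RPKM in the ANGPTL4 library and 42.8 RPKM in the vector library. UBB, a polyubiquitin gene, was at 100.9 RPKM in the ANGPTL4 library and 111.3 RPKM in the vector library.

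Shuttle factors and the VCP segregase complex were lower for 8 of 10 measured genes as deposited, with a median log2 ratio of -0.27, and under each of 4 scalings tried. Of all measured genes, 64.4% were lower as deposited and 47.6% to 79.4% under these scalings, so with a fixed total the count was near that share. UBQLN2 was at 7.42 RPKM in the ANGPTL4 library and 12.3 RPKM in the vector library, a ratio of 0.602 (0.464 to 0.772). UBQLN1 was at 22.3 RPKM in the ANGPTL4 library and 31.4 RPKM in the vector library. Their relative UBQLN4 ran the other way, at 27.6 RPKM in the ANGPTL4 library and 22.0 RPKM in the vector library, a ratio of 1.26 (1.10 to 1.44). RAD23B, a shuttle factor, was at 54.5 RPKM in the ANGPTL4 library and 66.1 RPKM in the vector library.

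Interferon and antigen processing genes, which share regulation with the immunoproteasome, were lower for 5 of 9 measured genes, or for 4 relative to the median gene and 6 with a fixed total per library. As deposited, none was 1.5-fold lower. TAP1, the peptide transporter gene next to PSMB9, was at 5.28 RPKM in the ANGPTL4 library and 7.06 RPKM in the vector library, a ratio of 0.748 (0.573 to 0.970). The annotated regions of TAP1 and PSMB9 overlap, and the part of shared reads in their values was not tested. TAP2 was at 6.78 RPKM in the ANGPTL4 library and 10.1 RPKM in the vector library. TAPBP was at 51.6 RPKM in the ANGPTL4 library and 45.1 RPKM in the vector library. IRF2 was at 10.4 RPKM in the ANGPTL4 library and 9.08 RPKM in the vector library.

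**Figure D5:**
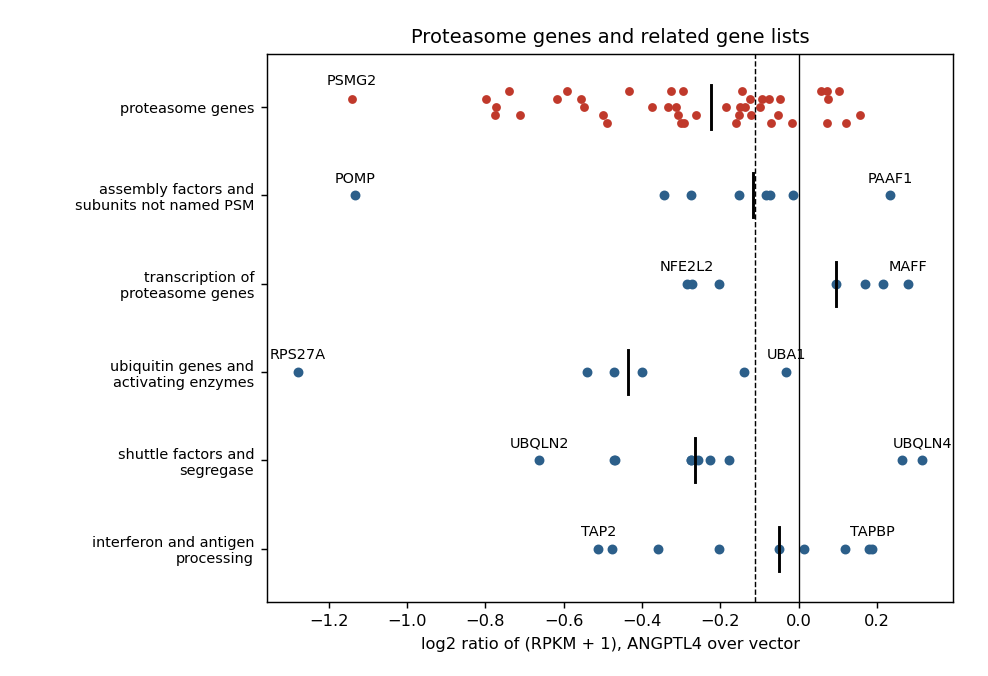
Log2 ratio of (RPKM + 1), ANGPTL4 over vector, for the 44 measured proteasome genes (red, spread vertically for legibility) and 5 related gene lists (blue), with 1 point per gene, a black bar at each median and a dashed line at the median of all measured genes (-0.11). PSMG2, POMP and RPS27A are the only points below -1, and the list medians lie between -0.44 and 0.10.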

How the data were processed

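Total RNA, extracted with TRIzol per the labels' protocols, gave 1 library per group. The authors deposited RPKM values for each gene row, per the file headers, made on hg19 according to the submitters' processing notes. For aligner, counter, annotation, strand and multiply matching reads, the sources used here say nothing. Because RPKM is relative to the whole library, very abundant genes lower all others.

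Rows with the same symbol were summed for the counts over all genes. Depth is the smallest total at which all 13 mitochondrial protein genes gave whole reads. Exon lengths that made both libraries whole (tolerance 0.0001 plus rounding) were matched to GENCODE 29. Intervals of ratios and pair shares are exact (Clopper-Pearson) and cover counting error only. The recovery of depth and reads, the 2-fold rule and the ratio intervals between the libraries were checked on simulated data. These data held counting error only, and pair shares were not part of the check. The minimum was 1 RPKM and the pseudocount 1. Python 3.11.15, numpy 2.4.6, pandas 2.3.3 and scipy 1.17.1 were used.

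The genes, lists and size rules were chosen with earlier results of these data known. All measured proteasome genes are named, with of each related list the ends, a few preset genes, and others chosen after their values were seen. Alternatives were other pseudocounts, minimums, scalings, a correction for exon length and GC content, and another treatment of repeated symbols. Some genes of the related lists are counted but not reported by name here.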

Additional observations from a re-analysis of the deposited data

How the results depend on the processing

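The median log2 ratio of the proteasome genes was below 0 in every setting tried. It was -0.14 with a pseudocount of 5, -0.18 with a minimum of 5 RPKM, -0.11 after centring on the median gene, -0.086 after upper-quartile scaling, -0.36 with a fixed total per library, -0.13 with a fixed total that leaves out small RNA, mitochondrial and ribosomal protein genes, and, in an alternative chosen after seeing the data, -0.28 with PSMA1 and PSMA2 added. Its distance from the median of all genes stayed between -0.17 and -0.059. The count at least 1.5-fold lower was 4 with a pseudocount of 5 (2.62% of all genes), 5 after upper-quartile scaling (5.74%) and 12 with a fixed total (15.4%), and the count at least 2-fold lower was 0 with a pseudocount of 5 (0.22% of all genes) and after upper-quartile scaling (1.25%). Intervals below 1 numbered 16 after centring, against 16.5% of the 9745 measured rows with settled reads. They numbered 16 after upper-quartile scaling and 29 with a fixed total. For these scalings the share of intervals over all rows was not computed, so the counts cannot be set against it. Upper-quartile scaling put PSME3 at 0.015 and a fixed total put PSMD8 at -0.0098. The summed PSME to PSMG ratio was 0.914 as deposited, 1.02 after upper-quartile scaling and 1.002 after centring. Of the 44 genes, 25 were lower in every setting and 19 changed sign in at least 1. The matching shares of all measured genes were not computed, so neither count can be set against them. No paired analysis was possible because each group has 1 library, and no replicate could be left out. Depth limits PSMB8, PSMB9, PSMD10, PSMG3 and PSMG4, with at most 67 reads in the ANGPTL4 library and intervals that include 1. The intervals of PSMB6 and PSMD9 also include 1, but their 59 and 21 reads in the ANGPTL4 library are minimum numbers. PSMB10 and PSMG2 had 38 and at least 42 reads there, with intervals below 1.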

Other observations

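Of 30 pseudogene rows, which belong to 11 proteasome genes, 1 was listed above 0, PSMD4P1, at 0.279 RPKM in the ANGPTL4 library and 0.137 RPKM in the vector library. The antisense row PSMD5-AS1 was at 1.29 RPKM in the ANGPTL4 library and 0.949 RPKM in the vector library, and PSMD6-AS2 was at 0.252 RPKM in the ANGPTL4 library and 0.496 RPKM in the vector library. Without the strand setting, reads of PSMD5 and PSMD6 and of their antisense rows cannot be told apart. Regions of 14 measured proteasome genes overlap 17 rows of at least 1 RPKM.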
